A study of Homo sapiens with 9 samples.

Results

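TDP2, tyrosyl-DNA phosphodiesterase 2, was described in U-87 cells, a human glioblastoma line, in 9 libraries made from the 3′ ends of mRNA. The gene was chosen from its counts in these same libraries, so its own levels are given as a description and carry no test. It is listed with 1 of the 159067 RefSeq transcripts of the deposited count table, NM_016614.3, and is 1 of 80013 gene sums. All libraries are of a 24 h time point, the time for which the treated cells were exposed. The libraries are 3 untreated controls and 1 library each of EA30 and EA45 (evernic acid, a lichen compound, at 30 or 45 µM), TMZ600 (temozolomide, an alkylating drug used against glioblastoma, at 600 µM) and the combinations EA35TMZ320, EA20TMZ380 and EA20TMZ580, where the numbers are again µM of each compound. No treatment was repeated, and the labels do not say whether the 3 controls came from separate cultures, so p-values measure only the spread between these libraries, which may be technical.

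Topoisomerase 2 cuts both strands of DNA to let another duplex pass and is joined to the cut ends through a tyrosine while it does so. When that step stalls, the protein stays on the DNA end, and TDP2 hydrolyses the bond between the tyrosine and the 5′ end so that the break can be joined again. TDP1 does the matching work at 3′ ends, where topoisomerase 1 is bound. TMZ acts in another way, by adding methyl groups to bases, which are dealt with by direct reversal, base excision and mismatch repair.

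In the GRCh38.p14 RefSeq annotation TDP2 lies on the minus strand at chr6:24649979-24666899 and overlaps no other annotated gene. The GENCODE v29 model has 7 exons, and the last, of 1093 bases, holds the stop codon and the end of the transcript that a 3′ library reads. ACOT13, an acyl-CoA thioesterase gene, starts on the opposite strand 177 bases away in RefSeq. The GENCODE model of TDP2 starts 134 bases further out, with 1 base between the genes, and the window below follows the RefSeq start. The promoter window of TDP2, taken by RefSeq from 250 bases before the start of the gene to 50 after it, shares 277 of its 300 bases with the window of ACOT13. It is shown for this overlap. The window is chr6:24666850-24667149, GRCh38, minus strand, and the capitals mark the only match to TGACNNNGC, letters of the antioxidant response element, and the only match to CGCATGCG, the core of the NRF1 motif.

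TDP2 promoter: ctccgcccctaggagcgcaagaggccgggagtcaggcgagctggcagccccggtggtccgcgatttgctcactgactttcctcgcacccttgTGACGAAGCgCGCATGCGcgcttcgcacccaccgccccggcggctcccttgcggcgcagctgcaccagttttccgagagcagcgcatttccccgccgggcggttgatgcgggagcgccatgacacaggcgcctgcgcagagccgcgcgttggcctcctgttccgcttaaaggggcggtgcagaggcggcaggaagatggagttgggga

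The 2 matches are 1 base apart and do not overlap. Searched on both strands, CGCATGCG occurs in 2.19% of 27305 promoter windows of this length and TGACNNNGC in 13.6%. GGGCGG, the GC box, has 4 matches in the TDP2 window and occurs in 44.6% of windows, while TGACGTCA (the cAMP response element, in 1.98% of windows) and CACGTG (the E-box, 7.43%) have no match there. A match is a description of the letters only, and factor binding was not measured.

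The libraries were shallow. The controls held 269057, 259753 and 285248 counts, and the treated libraries 490235 (EA30), 325812 (EA45), 213566 (EA35TMZ320), 367291 (EA20TMZ380), 330759 (EA20TMZ580) and 304336 (TMZ600). Transcripts of the mitochondrial genome took 48.7% ± 0.340 (SD, n = 3) of the counts in the controls and 51.7 to 58.7% in the treated libraries. Most genes are listed at 0 in every library, VIM, CD44 and FN1 among them, although U-87 cells are known to make these RNAs, so a 0 here is not read as absence of a transcript. By counting error alone a 0 allows up to 3 counts, or 6.12 CPM (counts at equal library size) in EA30 and 14.0 CPM in EA35TMZ320.

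The cell type could be checked on few markers. Of 20 markers of glioma and mesenchymal cells, 16 are listed at 0 in all libraries, and the list sums to 152, 169 and 178 counts in the controls and to 15 to 57 in the treated libraries. Nearly all of these counts belong to NES, the intermediate filament nestin of neural progenitors and glioma cells, with 152, 169 and 174 counts in the controls against 22 in EA35TMZ320, 44 in EA20TMZ380, 20 in EA20TMZ580, 56 in EA30, 15 in EA45 and 54 in TMZ600. NES lay below every control in 6 of 6 treated libraries, with a log2 change of −2.37 (SE 0.31, edgeR adjusted p = 0.00128) for the 6 treatments as 1 group. In that fit 6.24% of all gene sums passed. Its 6 treated libraries differ in treatment and are not replicates, so differences between treatments count as spread. Markers of other cell types were at or near 0. Of all 19287 coding genes 13.6% had any count, so these low values do not bear on the cell type. PDGFRB of fibroblasts had 9 counts over all libraries, CD3E of T cells 2 and VWF of endothelium 1, and the 4 epithelial and 4 neuronal markers are listed at 0 throughout. Whether the drop of NES has a part in the TDP2 levels was not tested.

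TDP2 was counted in all 9 libraries. The controls gave 63, 61 and 57 counts, EA30 149, EA45 238, EA35TMZ320 293, EA20TMZ380 172, EA20TMZ580 93 and TMZ600 77. The highest count thus came from the library with the lowest total.

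Scaled to CPM with TMM factors (edgeR's correction for library composition), the controls stood at 213, 216 and 182 CPM, a mean of 204 ± 18.9 (SD, n = 3). EA30 had 348 CPM (95% exact Poisson interval 294 to 408), EA45 807 (708 to 917) and EA35TMZ320 1303 (1158 to 1462). The other combinations had 528 CPM (452 to 613, EA20TMZ380) and 299 CPM (242 to 367, EA20TMZ580), and TMZ600 had 229 CPM (181 to 287). All 6 treated libraries lay above the highest control, TMZ600 by little, and the highest treated level was 5.68 times the lowest. These intervals cover counting error only, since reads without molecular identifiers are not independent molecules, and as shares of a library the values cannot tell more TDP2 RNA per cell from less RNA of other genes.

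**Figure D1:**
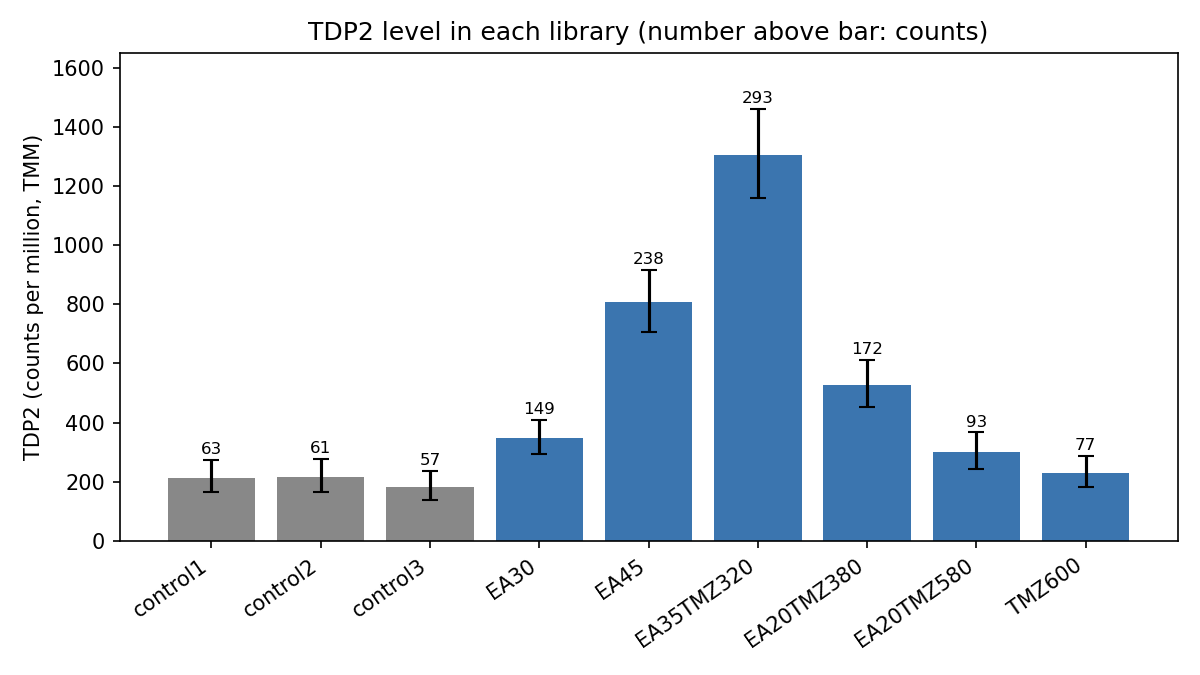
TDP2 level in CPM (vertical axis, TMM scaling) in each of the 9 libraries, with controls in gray, treated libraries in blue, 95% exact Poisson intervals as error bars and counts above the bars. The controls sit between 182 and 216 CPM and the treated libraries between 229 (TMZ600) and 1303 CPM (EA35TMZ320).

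Against the mean of the controls, TDP2 was 6.39-fold higher in EA35TMZ320, 3.96-fold in EA45, 2.59-fold in EA20TMZ380, 1.71-fold in EA30, 1.47-fold in EA20TMZ580 and 1.13-fold in TMZ600. On the log2 scale these ratios are 2.68, 1.99, 1.37, 0.77, 0.55 and 0.17, beside an SD of 0.14 between the controls. When each library is set against the summed controls, the counting interval of the ratio is 5.31 to 7.76 in EA35TMZ320, 3.26 to 4.84 in EA45, 2.10 to 3.22 in EA20TMZ380, 1.37 to 2.14 in EA30 and 1.13 to 1.90 in EA20TMZ580. For TMZ600 it runs from 0.853 to 1.48. Folds and intervals hold for TMM. Over 9 alternatives the fold ran from 6.07 to 9.71 in EA35TMZ320 and from 3.28 to 7.89 in EA45, the highest of each with upper-quartile factors. These intervals describe the counts and are no test of a treatment, since TDP2 was chosen from these values and each treatment is 1 library.

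The order of the levels was EA35TMZ320, EA45, EA20TMZ380, EA30, EA20TMZ580, TMZ600 and then the controls. The first 3 steps were the larger ones. EA35TMZ320 was 1.61 times EA45 (95% interval 1.36 to 1.92), EA45 was 1.53 times EA20TMZ380 (1.25 to 1.87) and EA20TMZ380 was 1.52 times EA30 (1.21 to 1.90). The lower steps were smaller, and their intervals include 1. EA30 was 1.16 times EA20TMZ580 (0.890 to 1.52), EA20TMZ580 was 1.30 times TMZ600 (0.954 to 1.79) and TMZ600 was 1.06 times the highest control (0.749 to 1.51). These intervals hold counting error alone, and over all nuclear genes with enough counts the chi-square between pairs of controls was 2.60 to 3.24 per degree of freedom, where counting error alone gives about 1. The step sizes and intervals hold for TMM. The order of the 6 treatments was the same under 5 scalings, but with upper-quartile factors EA45 was 2.77 times EA20TMZ380 and EA35TMZ320 was 1.23 times EA45. Those factors are coarse, since the upper quartile they rest on is 1 to 3 counts in each library. Whether any step exceeds the spread between cultures was not tested, since single libraries cannot show it.

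The mitochondrial share was 51.7% in TMZ600, 58.2% in EA30 and 54.8% in EA45, and with both compounds 54.9% (EA35TMZ320), 57.4% (EA20TMZ380) and 58.7% (EA20TMZ580). Whether it has a part in the TDP2 levels was not tested. When mitochondrial transcripts were left out before scaling, the controls averaged 425 ± 27.5 CPM (SD, n = 3) of nuclear counts, and TDP2 stood at 488 CPM in TMZ600, 755 in EA30 and 1811 in EA45, and with both compounds 2830 in EA35TMZ320, 1181 in EA20TMZ380 and 667 in EA20TMZ580. The order of the 6 treatments is the same on this scale, and all of them again lie above every control.

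Scaling moved all genes together. The median log2 ratio of the 609 gene sums with a mean of at least 10 counts was −0.23 in EA35TMZ320 and −0.10 in EA20TMZ380 with TMM, and 0.96 in EA45 and 0.37 in EA35TMZ320 with upper-quartile factors. Relative to that median, and on log2(CPM + 1), TDP2 with TMM stood at 2.90 in EA35TMZ320, 2.00 in EA45, 1.47 in EA20TMZ380, 0.77 in EA30, 0.56 in EA20TMZ580 and 0.12 in TMZ600. With upper-quartile factors the same differences were 2.90, 2.01, 1.47, 0.78, 0.56 and 0.13. Among the 609 gene sums, ranked from the highest fitted log2 change, TDP2 was at place 6 in EA35TMZ320, 16 in EA45, 21 in EA20TMZ380, 79 in EA30, 140 in EA20TMZ580 and 249 in TMZ600. The 5 above it in EA35TMZ320, named here after their values were seen, were DLGAP1-AS2, C9orf72, LINC00668, LURAP1L and TNFSF9.

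By dose, TDP2 was low wherever EA was missing and was spread out where EA was present. Without EA it was 182 to 216 CPM in the controls and 229 CPM with 600 µM TMZ. With EA alone, the level at 45 µM was 2.32 times that at 30 µM (95% counting interval 1.88 to 2.87), and 4.79 times with upper-quartile factors. At 20 µM EA, the level with 380 µM TMZ was 1.76 times that with 580 µM (1.36 to 2.29), so the larger TMZ dose went with the lower value. The combination EA35TMZ320 was 3.75 times EA30 (3.07 to 4.60, and 5.90 times with upper-quartile factors) and 1.61 times EA45, the 2 doses of EA alone that lie on either side of its own, but no library had 35 µM EA without TMZ.

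**Figure D2:**
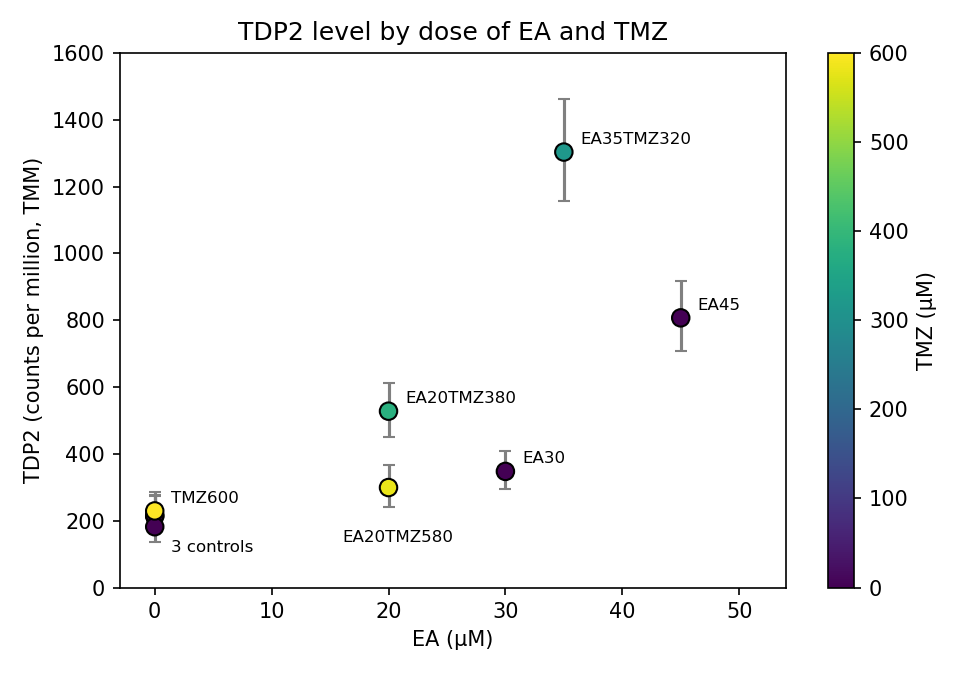
TDP2 level in CPM (vertical axis, TMM scaling) against the EA dose in µM (horizontal axis), with the TMZ dose as color and 95% exact Poisson intervals as error bars, 1 point per library. The 4 libraries without EA lie between 182 and 229 CPM, and the highest point, 1303 CPM, is at 35 µM EA with 320 µM TMZ.

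A model over the 9 libraries with additive terms for both doses gave TDP2 a slope of 0.52 log2 units per 10 µM EA, or 1.43-fold. The slope per 100 µM TMZ was 0.064, or 1.05-fold. TDP2 was chosen from these values, so its slopes are a description and no test. Among the 609 gene sums these slopes ranked 12 and 137 from the highest. Counted from the observed control mean, without the intercept of the model, the slopes did not place each library closely. EA35TMZ320 would lie 2.02 log2 units above the controls and lay at 2.68. EA30 would lie at 1.56 and lay at 0.77, and EA20TMZ580 would lie at 1.41 and lay at 0.55. These differences are not residuals of the model, whose fitted level without either compound can differ from that mean. Without EA35TMZ320 the EA slope was 0.42, and the TMZ slope ranged from 0.026 to 0.12 when each library was left out in turn.

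Beside TDP2, 157 genes are on 9 lists that include topoisomerases, repair factors, damage signalling, binding partners and chromosomal neighbours. Of these, 140 are listed at 0 in all libraries, 17 (10.8%) had at least 1 count and 4 (2.55%) had the mean of 10 counts needed for a test, against 13.6% and 1.96% of all 19287 coding genes. The 0s include TOP2A and TOP2B, whose adducts TDP2 removes, TOP1 and TDP1, and the damage signalling kinases ATM and ATR. Of the 6 topoisomerases, TOP3B alone was counted, with 6, 2 and 5 counts in the controls and 16 (EA30), 6 (EA45), 3 (EA35TMZ320), 11 (EA20TMZ380), 6 (EA20TMZ580) and 9 (TMZ600) in the treated libraries. Among the binding partners of the TDP2 protein, TRAF2 had 2 counts and TRAF5 1.

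The 4 genes tested were POLQ, FANCG, ALKBH3 and C6orf62. Each treatment was compared with the controls by edgeR's quasi-likelihood test, adjusted by Benjamini-Hochberg over 609 gene sums with a threshold of 0.05. With 1 library per treatment this compares that library with the controls, and only the 3 controls bear on the spread. They leave 2 residual degrees of freedom per gene, which edgeR moderates with 38.0 prior degrees of freedom drawn from all genes. Each p thus rests mostly on the spread of other genes. Of these 4, 2 passed in EA45, where 38.9% of all gene sums passed, and 1 passed in EA35TMZ320, where 42.0% did. None passed in EA30 (17.6% of all), EA20TMZ380 (25.6%), EA20TMZ580 (24.6%) or TMZ600 (11.2%), and 1 of the 4 in EA30 and 0 in the others had an unadjusted p under 0.05. DESeq2 also called none of the 4 in these treatments, but it called fewer gene sums in all, 6.08% in EA30, 8.21% in EA20TMZ380, 6.90% in EA20TMZ580 and 3.28% in TMZ600. In EA45 it called 0 of 4 with 18.1% of all, and in EA35TMZ320 1 with 24.0% of all. Limma-voom called 1, ALKBH3, in EA30, with 20.0% of all, and 0 in EA20TMZ380 (26.1% of all), EA20TMZ580 (26.9%) and TMZ600 (12.2%), beside 2 in EA45 (39.7%) and 1 in EA35TMZ320 (40.2%). Counts out of 4 genes are too few to be read against these shares. The median log2 change of the 4, which lie on both sides of 0 in most treatments, was 0.27 in EA30, 0.78 in EA45 and 0.02 in TMZ600, beside −0.0086, −0.02 and 0.05 over all gene sums. In the combinations it was 0.34 (EA35TMZ320), 0.37 (EA20TMZ380) and −0.03 (EA20TMZ580), beside −0.23, −0.10 and 0.00045.

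POLQ, the polymerase of microhomology-mediated end joining, was higher in the EA35TMZ320 and EA45 libraries than in the controls. Its controls had 146, 103 and 115 CPM, a mean of 121 ± 22.1 (SD, n = 3). It had 135 CPM in EA30, 237 in EA45 and 182 in TMZ600, against 409 in EA35TMZ320, 172 in EA20TMZ380 and 135 in EA20TMZ580. The highest values are in the same 2 libraries as those of TDP2, and 4 of 6 treated libraries lie above every control. The log2 difference of POLQ was 1.75 (SE 0.35, edgeR adjusted p = 6.12e-05) in the EA35TMZ320 library and 0.97 (SE 0.36, edgeR adjusted p = 0.0286) in the EA45 library. The second call was lost with the DESeq2 test, without the filter on low counts and with scaling to total counts, with adjusted p from 0.0135 to 0.353 over 11 alternatives. An annotated pseudogene lies within POLQ, so some of its reads are uncertain.

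FANCG, a subunit of the Fanconi anaemia core complex for repair of DNA crosslinks, had 739, 648 and 664 CPM in the controls (684 ± 48.2, SD, n = 3). It had 494 CPM in EA35TMZ320, 635 in EA20TMZ380, 586 in EA20TMZ580, 740 in EA30, 393 in EA45 and 870 in TMZ600, so the treated libraries lie on both sides of the controls, with 2 above and 4 below all of them. In the EA45 library it was lower, with a log2 difference of −0.80 (SE 0.21, edgeR adjusted p = 0.00271). That call was lost with the DESeq2 test, and adjusted p ranged from 5.84e-05 to 0.102 over 11 alternatives.

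ALKBH3, a dioxygenase that removes methyl groups from bases by direct reversal, had 176, 206 and 105 CPM in the controls (162 ± 51.5, SD, n = 3) and 131 in TMZ600, 310 in EA30 and 244 in EA45, and with both compounds 89.0 in EA35TMZ320, 190 in EA20TMZ380 and 184 in EA20TMZ580. Its lowest level was thus in the library where TDP2 was highest. No change of ALKBH3 passed edgeR's test, and its log2 difference in EA30 was 0.94 (SE 0.35, edgeR adjusted p = 0.0558). Over 11 alternatives 3 passed, with adjusted p from 0.00477 to 0.755. An antisense gene and a pseudogene overlap ALKBH3, and the strand setting of the counting is not given in the sources used here, so its reads are uncertain. MGMT, which removes the methyl group that TMZ leaves at the O6 position of guanine, is listed at 0 in all libraries.

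**Figure D3:**
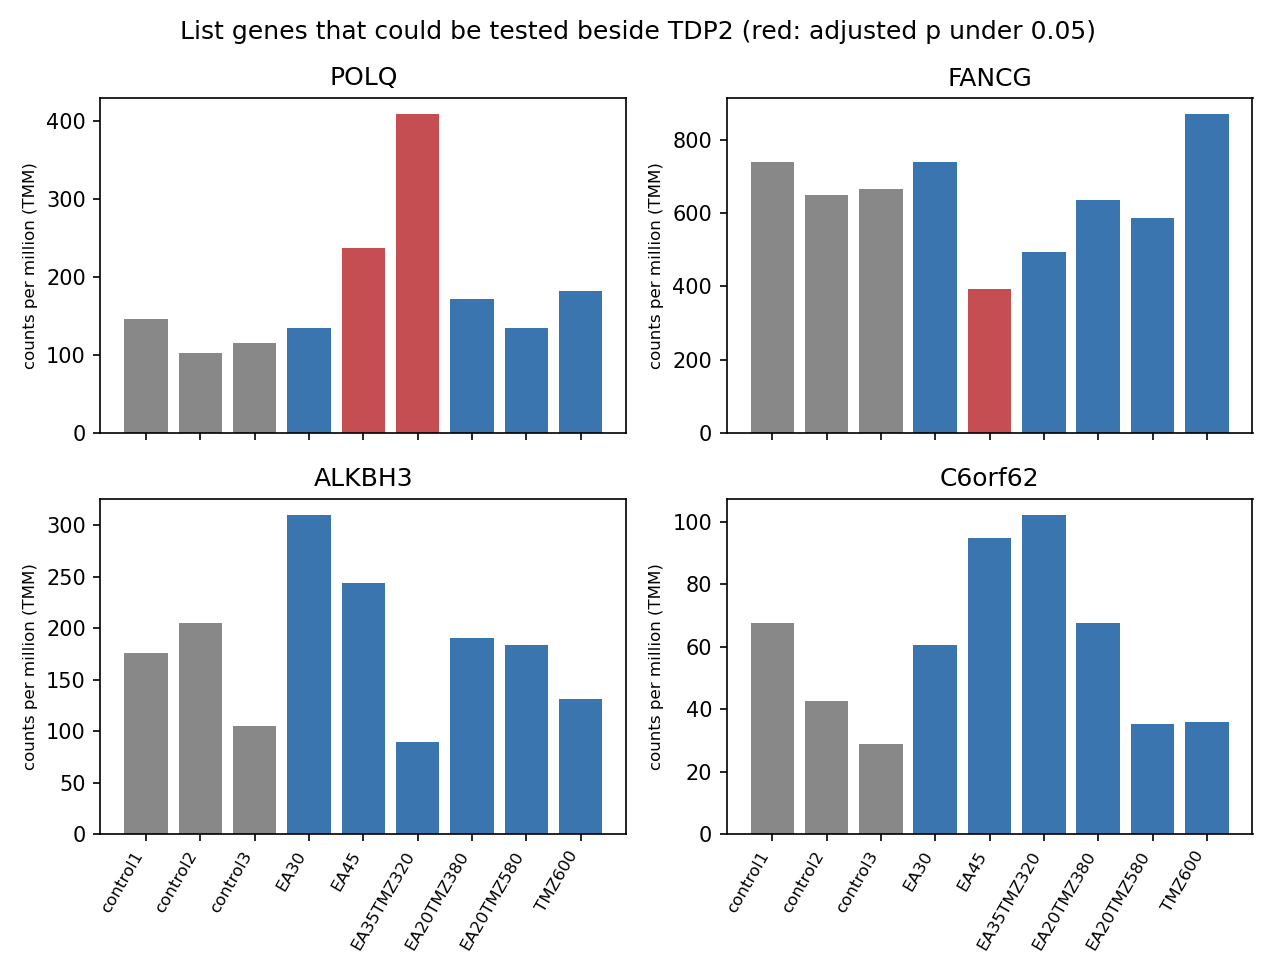
Levels in CPM (vertical axes, TMM scaling) of the 4 list genes that could be tested, in each of the 9 libraries, with controls in gray, treated libraries in blue and those past the threshold in red. POLQ is highest in EA35TMZ320 at 409 CPM, and FANCG is lowest in EA45 at 393 CPM.

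On chromosome 6, C6orf62 is the neighbour with enough counts for a test. It had 20, 12 and 9 counts in the controls, 26 in EA30, 28 in EA45 and 12 in TMZ600, against 23 in EA35TMZ320, 22 in EA20TMZ380 and 11 in EA20TMZ580. In CPM the controls had 67.8, 42.5 and 28.7 and the highest library was EA35TMZ320 with 102, followed by EA45, the same 2 as for TDP2. Neither difference passed, with log2 values of 1.14 (SE 0.56, edgeR adjusted p = 0.0961) and 1.03 (SE 0.54, edgeR adjusted p = 0.129). Without control 1, where C6orf62 is highest among the controls, both passed, and over 10 alternatives the adjusted p ran from 0.0244 to 0.648 in EA35TMZ320 and from 0.0390 to 0.883 in EA45. The end of C6orf62 overlaps the end of ACOT13 on the other strand, so their reads are uncertain too. ACOT13, whose promoter window TDP2 shares, had 6 counts over all libraries (4 in EA30, 1 in EA45 and 1 in EA35TMZ320) against 1203 for TDP2. ACOT13 is listed with 2 transcripts and TDP2 with 1, and coding genes listed with 2 had a count less often (9.93% of them) than those with 1 (21.5%), so the contrast is not read as one of expression. GMNN, for the replication inhibitor geminin, had 4, 2 and 5 counts in the controls, 15 in TMZ600 and at most 5 in the other treated libraries.

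Over more than 1 library, none of the 4 genes passed edgeR's test. For the 6 treatments as 1 group, 0 of 4 passed, where 6.24% of all gene sums did, and 0 had an unadjusted p under 0.05 or passed with DESeq2 (14.6% of all) or limma-voom (5.58%). The libraries of this group differ in treatment and are not replicates, so differences between treatments count as spread. For the EA term of the dose model 0 of 4 passed against 25.9% of all gene sums, although 3 had an unadjusted p under 0.05 and DESeq2 called 1 (30.8% of all) and limma-voom 0 (24.5%). The 1 was POLQ, whose slope was 0.24 per 10 µM EA (SE 0.087, edgeR adjusted p = 0.0522). Over 17 alternatives the slope ran from 0.16 (without EA35TMZ320) to 0.32 and adjusted p from 0.0229 to 0.202, and 7 passed. For the TMZ term 0 of 4 passed against 3.28% of all, with 0 under an unadjusted p of 0.05 and 0 by DESeq2 (6.91% of all) or limma-voom (2.96%). The medians of the 4 were 0.37, 0.18 and −0.02 in these comparisons, and those of all gene sums 0.04, −0.01 and 0.00099. The shares of all gene sums moved when 1 library was left out. For the 6 treatments the share ran from 1.96% (without control 2) to 12.8% (without TMZ600). It fell to 7.17% for the EA term without EA45. For the TMZ term it ran from 1.31% (without control 2) to 6.07% (without EA35TMZ320).

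The pattern of TDP2 over the 9 libraries was compared with that of 507 other named genes by Pearson's r on log2(CPM + 1). The libraries share their controls and 6 different treatments, so r is a description, and the median r was −0.098. The most similar genes were FBXO4 (r = 0.964), which encodes an F-box protein of a ubiquitin ligase, the pseudogene EBLN3P (0.947), LOC107986065 (0.944), MYDGF (0.933), which encodes a secreted growth factor, and LOC105375892 (0.933). Their Spearman rho was 0.883, 0.883, 0.867, 0.883 and 0.900, and over the 6 treated libraries alone r was 0.959, 0.922, 0.952, 0.889 and 0.962. Other annotated genes overlap FBXO4, LOC107986065 and LOC105375892, so the reads of these 3 are uncertain without the strand setting.

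All 5 were highest in EA35TMZ320 and next in EA45, which their choice by r to TDP2 favours. FBXO4 had 244, 209 and 220 CPM in the controls, 489 in EA35TMZ320, 301 in EA20TMZ380, 238 in EA20TMZ580, 275 in EA30, 387 in EA45 and 262 in TMZ600. LOC105375892 had 40.7, 49.6 and 51.1 CPM in the controls, 92.4 in TMZ600, 88.7 in EA30 and 204 in EA45, and with both compounds 276 in EA35TMZ320, 141 in EA20TMZ380 and 113 in EA20TMZ580. MYDGF went from 3823 ± 126 CPM (SD, n = 3) in the controls to 9245 in EA35TMZ320 and 3740 in TMZ600.

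At the other end were FLJ32255 (r = −0.988), LOC100272217 (−0.962), TLN1 (−0.961), which encodes the integrin adaptor talin, ATP8 (−0.958), a subunit of ATP synthase encoded in the mitochondrial genome, and CEND1 (−0.949), a neuronal differentiation gene. FLJ32255 had 895, 783 and 831 CPM in the controls, 607 in EA30, 309 in EA45 and 706 in TMZ600, against 231 in EA35TMZ320, 421 in EA20TMZ380 and 721 in EA20TMZ580. TLN1 had 8200 ± 103 CPM (SD, n = 3) in the controls, 4359 in EA45 and 2171 in EA35TMZ320. All 5 were lowest in EA35TMZ320, which again follows largely from the choice by r. By Spearman's rho, 0 of the 5 most similar and 3 of the 5 most dissimilar genes were the same. Without mitochondrial transcripts in the scaling, 5 and 2 were the same, ATP8 being itself one of those left out. Other annotated genes overlap FLJ32255, TLN1 and ATP8, so their reads are uncertain too.

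**Figure D4:**
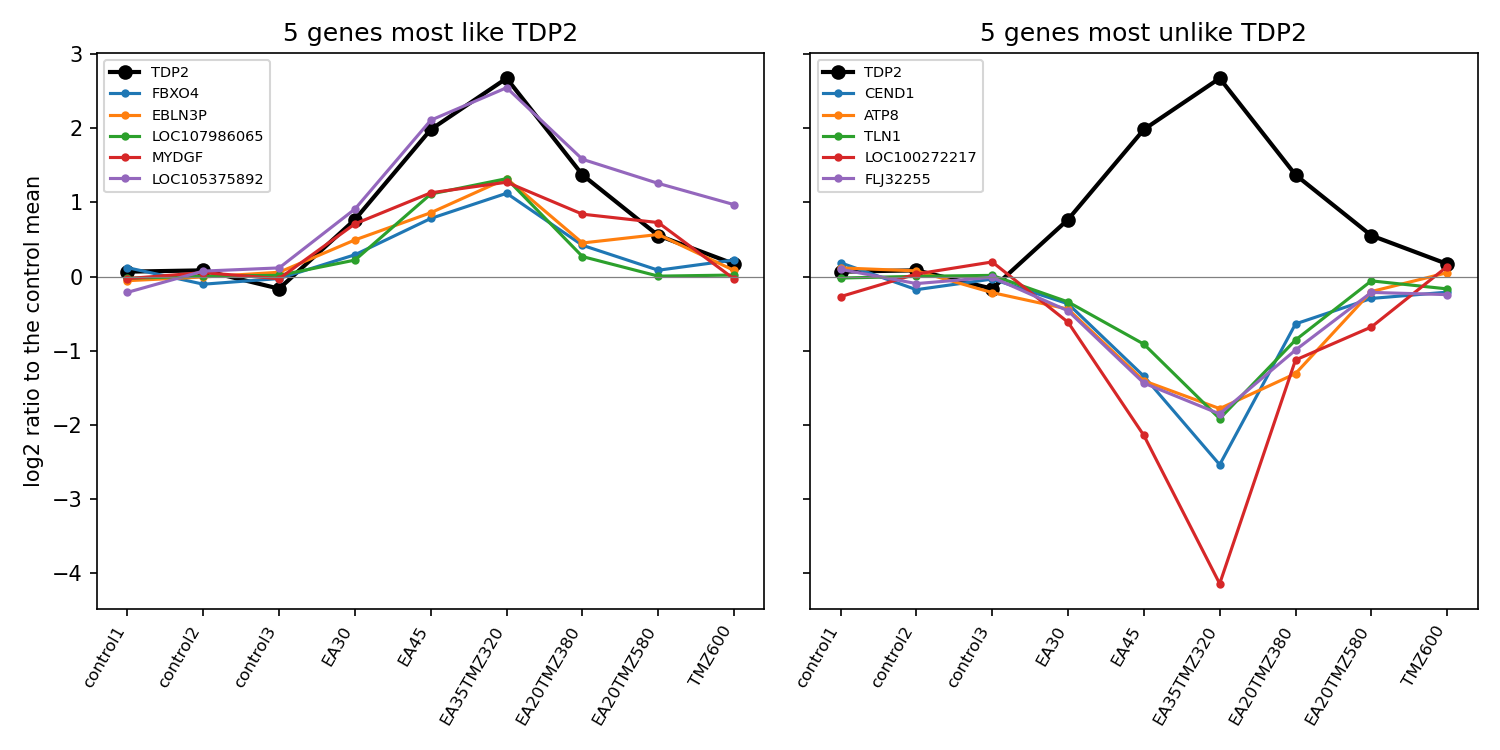
Log2 ratio to the control mean (vertical axis) in each of the 9 libraries for TDP2 (black) with the 5 genes most like it (left) and the 5 most unlike it (right) by Pearson's r over 9 libraries; lines only join the points of a gene. All 10 genes, chosen by r, have their extreme value in EA35TMZ320, as does TDP2 with 2.68.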

How the data were processed

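The libraries of U-87 RNA cover transcript 3′ ends. Values are raw counts for each RefSeq transcript, in 1 table that the authors deposited without normalization. The submitters' processing notes name HISAT2, HTSeq and hg38, and versions and strand settings are not given in the sources used here. Symbols were matched to RefSeq (GRCh38.p14) by identifier and version for 57755 transcripts and without version for 56301. The other 45011, with 4.63% of counts, had no match. Counts were summed by gene, since a gene's transcripts are listed separately. TDP2 and the lists were chosen with earlier results of these data known. TDP2 was fitted and adjusted with the other genes, and its p is not given.

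Gene sums with a mean of at least 10 counts, 609 with TDP2 among them, were tested in edgeR 4.0.16 by its quasi-likelihood F-test (R 4.3.3, TMM, Benjamini-Hochberg, threshold 0.05), with 1 coefficient per condition, with the 6 treatments as 1 group, and with terms per 10 µM EA and per 100 µM TMZ. In the first fit the 3 controls alone leave residual degrees of freedom, 2 per gene, to which edgeR's moderation adds 38.0 from all genes. Each treated library was assumed to share this spread. Named genes are TDP2, list members with a mean of at least 10 counts (others by counts), and the 5 highest and 5 lowest Pearson r to TDP2. NES, a cell type marker on none of the lists, was tested in addition, although no test of markers was planned. The 3 pairs of controls differed by more than counting error, with a chi-square of 2.60 to 3.24 per degree of freedom, which repeat libraries of the same RNA could also do, and were kept as the 3 libraries that the labels name. Their numbers pair no treated libraries. Alternatives were DESeq2 1.42.0 (size factors and Wald test), limma-voom (limma 3.58.1), total counts, upper-quartile factors, no mitochondrial transcripts, other filters, single transcripts and leaving out libraries. Tables and plots were made with Python 3.11.15, pandas 2.3.3, numpy 2.4.6, scipy 1.17.1 and matplotlib 3.10.9.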

Additional observations from a re-analysis of the deposited data

How the results depend on the processing

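The TDP2 log2 ratios kept their sign under all 9 alternatives in each of the 6 treatments. Of 54 values, 45 moved by less than the SD between the controls, and the 9 that moved by more all came from a change of scaling. The pseudocount, the single transcript and leaving out 1 control could hardly move a ratio by that SD, so the 45 do not measure stability. With total counts the ratio was 0.45 in EA30, 1.71 in EA45, 1.07 in EA20TMZ380 and 0.33 in EA20TMZ580. With upper-quartile factors, which rest here on an upper quartile of 2 counts in the controls, 1 in EA45 and EA35TMZ320 and 3 in EA30 and are therefore coarse, it was 2.98 in EA45, 3.28 in EA35TMZ320, 1.51 in EA20TMZ380 and 0.35 in TMZ600, and with DESeq2 size factors 2.83 in EA35TMZ320. A scaling shifts every gene of a library by 1 amount. Because 1 TDP2 transcript is listed, the most counted transcript gives the same values. The EA slope of TDP2 ranged from 0.42 (without EA35TMZ320) to 0.58 (without EA30). The TMZ slope, 0.064 over all libraries, ranged from 0.026 (without EA35TMZ320) to 0.12 (without EA20TMZ580). Of the 5 genes most like TDP2, 0 were shared with Spearman's rho and 5 without mitochondrial transcripts, and of the 5 most unlike it 3 and 2.

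Counts of all gene sums passing moved with the test and with the libraries used. DESeq2's Wald test called 37 in EA30, 110 in EA45 and 20 in TMZ600, against 107, 237 and 68 with edgeR. In the combinations it called 146 (EA35TMZ320), 50 (EA20TMZ380) and 42 (EA20TMZ580), against 256, 156 and 150. For the 6 treatments and the TMZ term it called more, 89 and 42 against 38 and 20. Without the filter, 101 passed in EA20TMZ380, 94 in EA20TMZ580 and 44 in TMZ600. When libraries were left out in turn, the count ran from 42 (without control 2) to 66 in TMZ600. For the 6 treatments it ran from 12 (without any 1 control) to 78 (without TMZ600), and was 24 without EA20TMZ380. For the EA term it ran from 44 (without EA45) to 178. For the TMZ term it ran from 8 (without control 2) to 38 (without EA35TMZ320), and was 13 and 10 without the other controls, 11 without EA30 and 13 without EA20TMZ580. The causes were not tested.

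Of the 4 list genes, 1 passed in EA30 with limma-voom (20.0% of all gene sums) and without control 2 (16.3%), and 0 without control 1 or 3. Under the stricter filter of 50 counts C6orf62 was not tested, and 1 of 3 passed in EA30 (31.1%) and 1 of 3 for the EA term (39.7%). In EA45, 0 passed with DESeq2 (18.1%), 1 without the filter (3.41%) or with total counts (40.4%), a scaling chosen for these counts after seeing the data, and 3 without control 1 (36.8%), against 2 without control 2 or 3. In EA35TMZ320, 2 passed with total counts (43.2%), and 1 to 2 with a control left out, 2 being without control 1 (41.7%). For the EA term, POLQ alone passed with DESeq2 size factors (28.4%), no mitochondrial transcripts (26.3%) or DESeq2's test (30.8%). With total counts 1 passed as well (26.3%), but it was FANCG, with a slope of −0.21. The number passing was 0 to 2 when a library was left out, with 2 without control 1 (20.8%) or EA30 (27.9%) and 1 without EA20TMZ580 (28.9%).

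Differences that had passed no test changed sign in places. With total counts POLQ was −0.16 in EA30 and −0.062 in EA20TMZ580, FANCG −0.21 in EA30, and ALKBH3 −0.068 in EA20TMZ380 and −0.038 in EA20TMZ580. With a control left out, FANCG ranged from −0.063 to 0.050 in EA20TMZ380, and C6orf62 from −0.55 to 0.10 in EA20TMZ580 and from −0.62 to 0.027 in TMZ600. With any library left out, FANCG ranged from −0.17 to 0.020 for the 6 treatments and from −0.00011 to 0.042 per 100 µM TMZ, and C6orf62 from −0.073 to 0.00059 per 100 µM TMZ. Reads of TDP2 under unmatched identifiers, and the spread between treated cultures, could not be measured here.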

Other observations

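Counted genes were also tallied along the chromosome of TDP2. Among coding genes listed with 1 transcript, 20 of 110 that start within the first 30 Mb of chromosome 6, where TDP2 lies, had 20 or more counts over the 9 libraries, against 3 of 202 on the rest of chromosome 6 and 315 of 5234 (6.02%) over all nuclear chromosomes. The boundary was chosen after the values were seen and the 20 include TDP2 itself, so the tally is a description, and the difference was not tested. Among coding genes with 1 listed transcript 21.5% had any count, against 9.93% of those with 2 and 10.9% of those with 3 or more.

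NES, the marker that dropped, had 515, 599 and 556 CPM in the controls and 131 (EA30), 50.9 (EA45), 97.9 (EA35TMZ320), 135 (EA20TMZ380), 64.4 (EA20TMZ580) and 161 CPM (TMZ600). Its lowest level was in EA45, not in EA35TMZ320.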
